A study of Homo sapiens with 4 samples.

Results

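The genes described here encode the protein components of the core spliceosome, the machine that removes introns from pre-mRNA. They were chosen by a rule on gene symbols, which was set with earlier results of these data known. It takes protein-coding genes whose symbol starts with SNRP, or with LSM, SF3A, SF3B or PRPF and a digit. In addition it takes U2AF1, U2AF2, SNRNP200, EFTUD2 and SART1. This rule found 52 genes among the 60671 gene identifiers of the study, of which 19903 are protein-coding. Other small nuclear ribonucleoprotein (snRNP) genes, such as SNRNP70, do not match the rule and were handled as a separate list of pathway genes.

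RNA sequencing was performed on 22RV1 cells, an established human prostate carcinoma line, and on PC3 cells, an established line from a prostate cancer metastasis. In each line, cells carrying a control short hairpin RNA (shCON) were compared with cells carrying a hairpin against the RNA helicase DDX52 (shDDX52). The hairpins were delivered by lentivirus from the PLKO.1 vector, stable transformants were isolated with puromycin, and all 4 groups share this treatment. The study lists a single hairpin against DDX52, so its effect and any effect of that hairpin on other targets cannot be told apart. There was 1 library for each of the 4 conditions, so no difference below has a replicate check. The cell lines were not treated as replicates of each other, no test was made and no p-value is given. Values are TPM, a length-corrected share of all transcripts. It allows levels of different genes to be compared only as far as the gene lengths used are right, and these are not known. TPM is scaled to a set total, but the listed genes summed to slightly unequal totals, from 984448 in PC3 shDDX52 to 990860 in 22RV1 shDDX52. TPM keeps no read numbers, so the depth behind each value is unknown. The log2 ratio is log2((TPM + 1) / (TPM + 1)) and was taken for genes reaching 1 TPM in one of the libraries compared. Changes of genes with low TPM come out too small on this scale. Since RNA was taken from whole cell populations, fewer cells expressing a gene and less RNA per cell cannot be told apart. A gene is called lower or higher when it passed 1.5-fold on this scale, and the share of all genes past the same limit is given beside each count.

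DDX52 was 4.88 TPM with shCON against 1.2 TPM with its hairpin in 22RV1, and 9.2 and 2.07 TPM in PC3, lower in both lines. KLK2, a prostate kallikrein gene, was 32.6 and 23.1 TPM in the 22RV1 libraries, while neither PC3 library had a value above 0 for it, and KLK3 showed the same split. HOXB13 and TMPRSS2 were higher in both 22RV1 libraries than in PC3. CAV1, a gene typical of PC3 cells, was 162 and 130.2 TPM in PC3 against 0.45 and 0.39 TPM in 22RV1, shCON first. VIM and AXL, mesenchymal genes used as the other PC3 markers, differed between the PC3 libraries. From shCON to shDDX52, VIM went from 12.6 to 66.7 TPM and AXL from 32.6 to 79.3 TPM. In 22RV1, shCON first, VIM was 8.08 and 5.57 TPM and AXL 0.13 and 0.05 TPM. VIM therefore set PC3 shCON apart from 22RV1 much less than AXL did. Of the 4 genes of other cell types that were looked at, PTPRC reached at most 0.39 TPM, DCN at most 1.87 TPM and COL1A1 at most 8.65 TPM, while PECAM1 was 5.03 TPM in PC3 shCON and 0.85 TPM in PC3 shDDX52. Genes annotated as rRNA held 1.21% and 0.0872% of the TPM in 22RV1 and 0.0923% and 3.13% in PC3, shCON first. The part of these differences in the results below was not tested, apart from the rescaling given beside the PC3 counts.

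Each snRNP consists of a small nuclear RNA wrapped by a ring of Sm proteins, or of LSM proteins in the case of U6, together with proteins particular to that particle. U1 recognizes the start of the intron, and U2, with its SF3a and SF3b subcomplexes and the U2AF dimer, marks the branch site and the end of the intron. The tri-snRNP of U4, U6 and U5 then joins, and its large proteins rearrange the RNAs into the catalytic centre. These genes are expressed in nearly all cells, and many of them are essential for growth.

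The promoter sequences of the members with the strongest falls in PC3 cells are shown first, because the study asks how DDX52 bears on c-Myc, which binds the E-box CACGTG as a dimer with MAX. A RefSeq promoter window was given for 43 of the 52 members, and the 250 bases before each start site were searched on both strands. Windows that overlapped an exon of the gene itself or lay at no GENCODE 29 start site are not printed, which left SF3B1 and LSM5 among the called members. Capitals mark an E-box (CACGTG) or the core of an ETS factor site (CCGGAA, or TTCCGG on the other strand), on build GRCh38.p14, with the gene read 5′ to 3′.
SF3B1, chr2:197435094-197435343, minus strand: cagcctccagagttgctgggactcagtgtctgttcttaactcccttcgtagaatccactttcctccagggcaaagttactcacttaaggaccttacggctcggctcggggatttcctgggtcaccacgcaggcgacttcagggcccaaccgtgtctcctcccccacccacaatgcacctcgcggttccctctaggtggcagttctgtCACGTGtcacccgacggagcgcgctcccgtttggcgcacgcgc
LSM5, chr7:32495284-32495533, minus strand: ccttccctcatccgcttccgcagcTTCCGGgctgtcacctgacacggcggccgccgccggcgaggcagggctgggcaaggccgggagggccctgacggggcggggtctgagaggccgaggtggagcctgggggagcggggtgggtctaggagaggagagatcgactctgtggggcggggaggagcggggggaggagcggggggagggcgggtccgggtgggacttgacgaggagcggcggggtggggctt

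The SF3B1 window held 1 E-box and the LSM5 window held 1 ETS core. Over all windows of a gene, CACGTG was present in 2 of 43 members, EFTUD2 and SF3B1, which is 4.65%, against 9.73% of 15843 protein-coding genes with a window. The letters CCGGAA were present in 25 of 43 members, or 58.1%, against 23% of the protein-coding genes. They were found in members called in PC3 (SF3A1, SNRPD3, SNRPE and LSM5) and in members with little change, such as SNRPB, SF3B2 and U2AF2. A TATAAA was present in SNRPC alone of the 43, which is 2.33% against 11.9%, and CCAAT was present in 17 members, 39.5% against 40.2%. The members had 1.28 windows per gene and the protein-coding genes 1.4. A match of letters is a description of the sequence and not a binding site.

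The spliceosome genes were expressed at moderate to high levels in all libraries. All 52 members reached 1 TPM in each of the 4 libraries, 46 were above 10 TPM in all of them and 15 above 100 TPM. Together they held 0.728% and 0.726% of the TPM in 22RV1 and 0.641% and 0.573% in PC3, shCON before shDDX52. The members at the highest levels were SNRPB, LSM4, LSM7 and SNRPD2, and the members at the lowest were LSM11 and PRPF39. The order of the levels was much the same in the libraries of a cell line, with a Spearman's rho across the 52 genes of 0.994 in 22RV1 and 0.965 in PC3. Between the control libraries of the cell lines rho was 0.888. These values describe genes, which are not independent replicates.

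**Figure D1:**
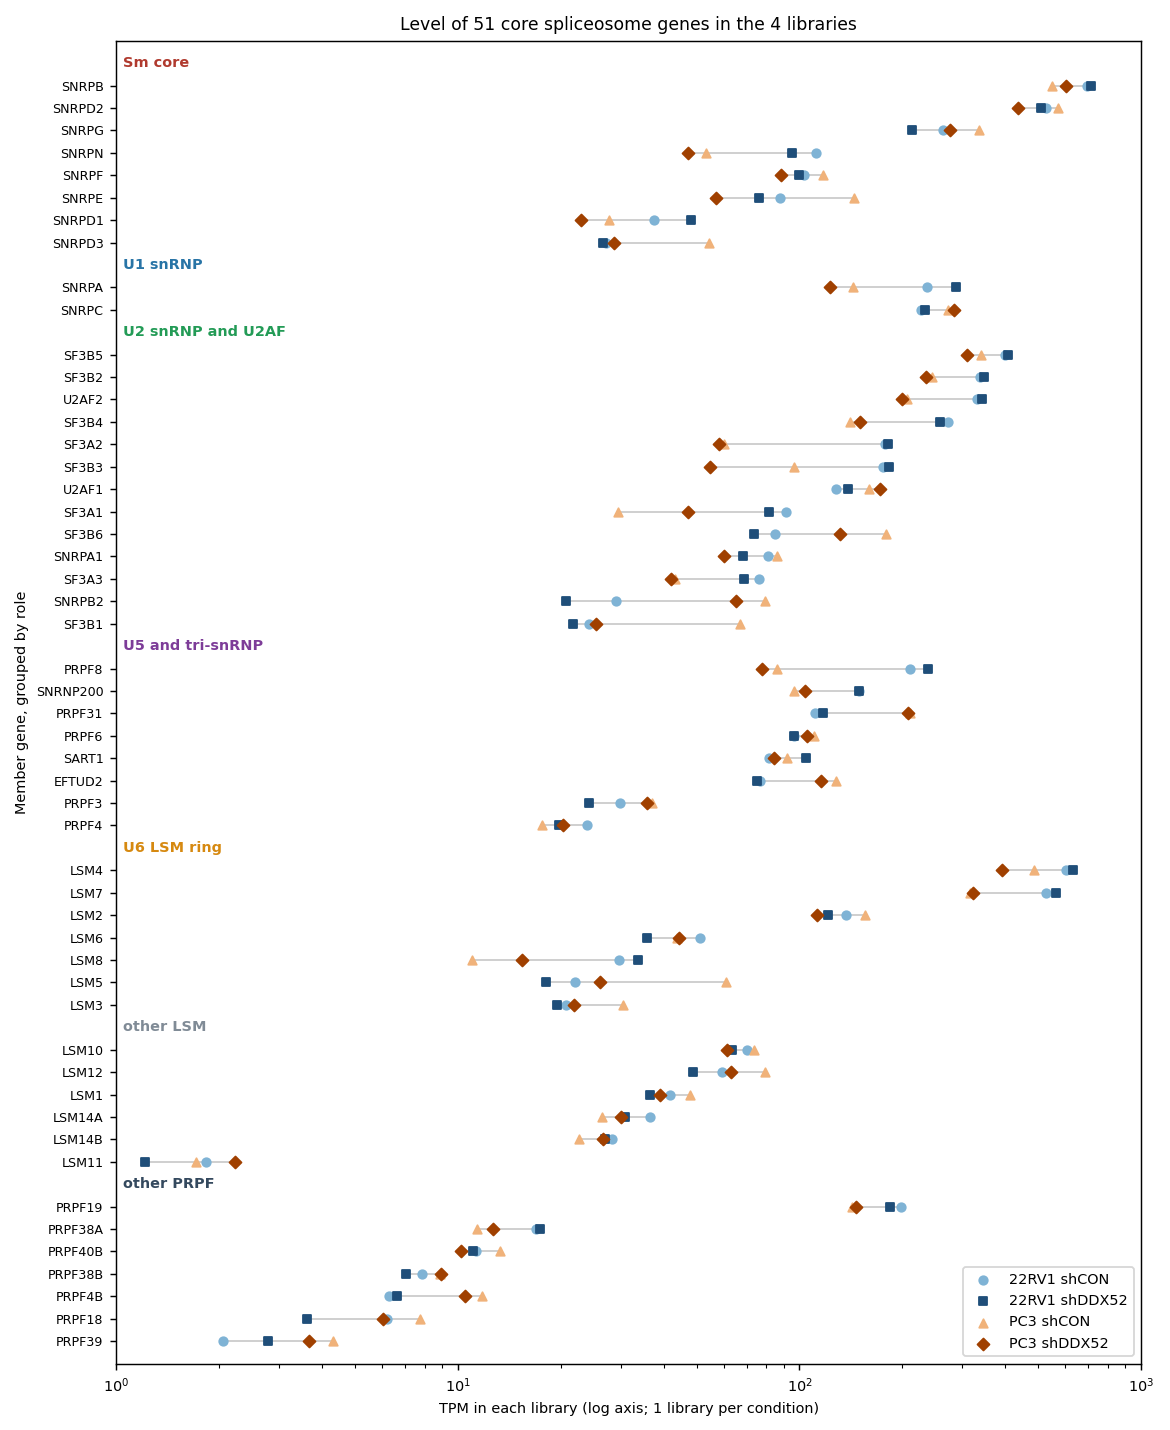
TPM of 51 of the 52 member genes in the 4 libraries on a log axis, with genes grouped by role and a grey line from the lowest to the highest library. Within the Sm core SNRPB and SNRPD2 lie above 400 TPM and SNRPD1 and SNRPD3 below 60 TPM in all 4 libraries, and for SF3B1 and LSM5 the PC3 shCON library stands apart to the right.

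With shDDX52 in 22RV1 cells, the spliceosome genes changed little. The median log2 ratio of the 52 members was −0.050, against −0.076 for all 14438 genes compared, and 30 members were lower and 22 higher, against 58.8% of all genes lower. At 1.5-fold, 1 member was lower (PRPF18), which is 1.92% of the members against 8.47% of all genes, and 0 members were higher, against 5.61%. At a lower limit, a log2 ratio of 0.32, LSM6, LSM11, PRPF18 and SNRPB2 were lower, 7.69% of the members against 22.6% of all genes, and SART1 and SNRPD1 were higher, 3.85% against 12.7%. The typical size of the change was a log2 ratio of 0.14 in either direction for the members. It was 0.18 for the 2644 genes with a mean TPM of 31.5 to 155, the middle range of the members. When log2 ratios were centred on the median of all genes, 23 members were lower and 29 higher, so the direction of the median in 22RV1 depends on the scaling.

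In PC3 cells more members passed the limits. The median log2 ratio of the members was −0.14, against −0.036 for all 14262 genes, and 36 members were lower and 16 higher, against 53.5% of all genes lower. At 1.5-fold, 5 members fell (SF3B1, SNRPE, LSM5, SNRPD3 and SF3B3) and SF3A1 rose. The falls are 9.62% of the members against 9.84% of all genes, and the rise is 1.92% against 8.95%. The share of members called was thus no larger than the share of genes in general, many of which have lower TPM. The typical size of the change was a log2 ratio of 0.19 for the members and 0.27 for all genes. It was 0.21 for the 2702 genes with a mean TPM in the middle range of the members, for which calls were not counted. At a log2 ratio of 0.32, 13 members were lower, 25% against 22.5% of all genes, and 2 were higher (SF3A1 and LSM8), 3.85% against 19.7%. SF3B1, SNRPE and LSM5 also passed 2-fold, as 3.44% of all genes did. When TPM was rescaled to nuclear protein-coding genes alone, 12166 genes were compared in PC3. Their median was 0.087, which is 0.12 above that of the 14262 genes with TPM as deposited. The median of the members was −0.011, with 28 members lower and 24 higher. Relative to the genes compared, the members were then lower by a log2 ratio of −0.098, against −0.10 with TPM as deposited. The same 5 members fell and SF3A1 rose. When ratios were centred within bins of length and GC content, the 5 members still passed 1.5-fold, and SF3A1, at 0.54, did not.

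**Figure D2:**
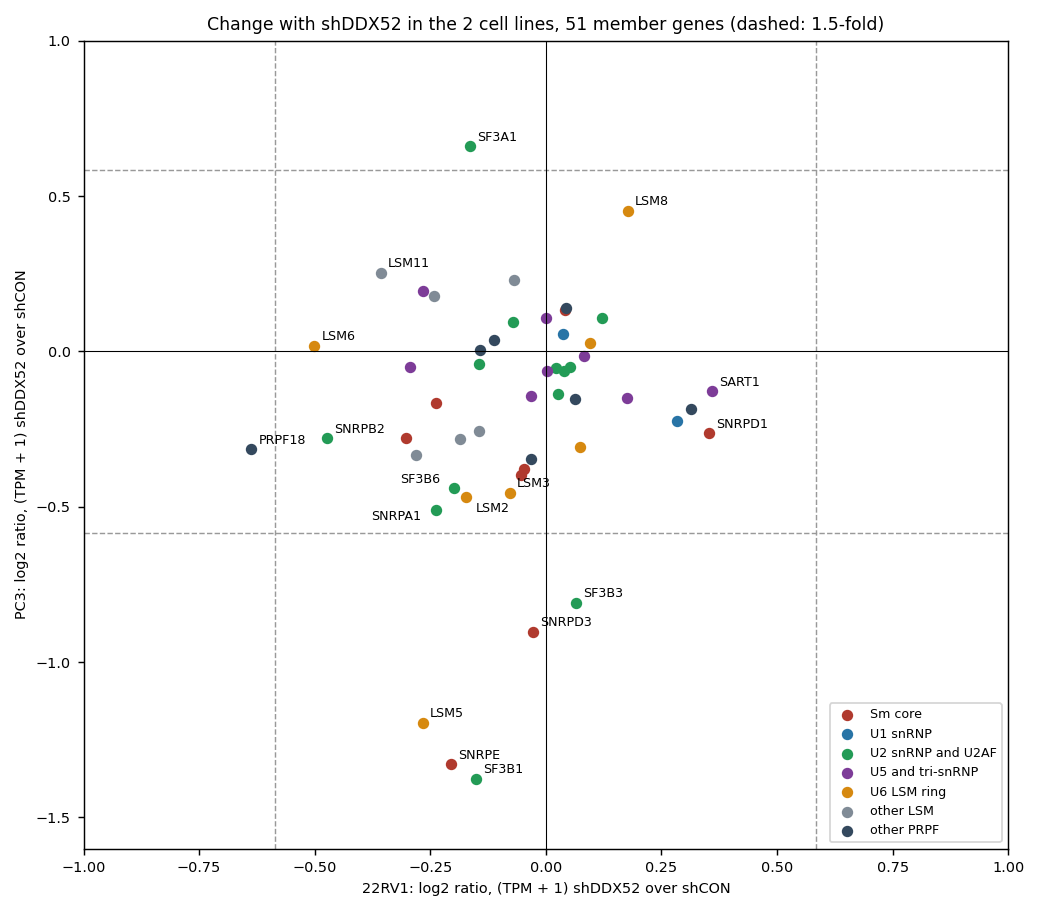
Log2 ratio of 51 of the 52 members with shDDX52 in 22RV1 (horizontal axis) and PC3 (vertical axis), coloured by role, with dashed lines at 1.5-fold. PRPF18 passes the line in 22RV1, 5 members lie below the lower line in PC3 and SF3A1 lies above the upper line, and no member passes 1.5-fold in both cell lines.

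The directions in the cell lines were only loosely related. These directions, and the medians, directions and sums of the role groups below, are for TPM as deposited. With nuclear protein-coding scaling 28 members and not 36 were lower in PC3, so the sign of small PC3 ratios depends on the scaling. That scaling was not summarised by role group. Spearman's rho between the log2 ratios was 0.16 across the 52 members and 0.012 across the 12175 genes compared in both lines. Lower in both lines were 21 members, which is 40.4% against 32.5% of all genes, among them SNRPE, SNRPD3, SNRPG, SF3B1, SNRPA1, SNRPB2, LSM2 and LSM5. Beyond −0.32 in both lines there were 0 members, against 5.22% of all genes. Higher in both were 7 members, 13.5% against 18.5% of all genes. Lower in 22RV1 and higher in PC3 were 9 members, 17.3% against 27.4%, and the other 15 were higher in 22RV1 and lower in PC3, 28.8% against 21.4%.

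The Sm proteins form the ring that is assembled on the U1, U2, U4 and U5 RNAs in the cytoplasm. In PC3 cells 7 of the 8 Sm genes were lower with shDDX52 and SNRPB was higher, with a median log2 ratio of −0.33, and their summed TPM was 1850 with shCON and 1560 with shDDX52. In 22RV1 cells 6 of the 8 were lower, the median was −0.050 and the sums were 1853 and 1784 TPM. The Sm group held 2 of the 5 falling members in PC3, 25% of the group against 9.84% of all genes. In 22RV1 it held 0 called members, against 8.47% of all genes lower and 5.61% higher. Without a limit on size, 53.5% of all genes were lower in PC3 and 58.8% in 22RV1.

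SNRPE, which encodes Sm E, was 88 and 76.1 TPM in 22RV1 and 144 and 56.8 TPM in PC3, shCON before shDDX52. PC3 shCON was the highest library and PC3 shDDX52 the lowest, so that 39.4% of the PC3 control level was left and the log2 ratio was −1.33, against −0.21 in 22RV1. SNRPE has 10 listed pseudogenes, of which SNRPEP4 alone reached 1 TPM, with 3.12 TPM in 22RV1 shCON and a value of 0 in the other libraries. SNRPD3, which encodes Sm D3, was 27.2 and 26.7 TPM in 22RV1 and 54.4 and 28.6 TPM in PC3, shCON first. Here PC3 shCON stood above the other 3 libraries, and the log2 ratio was −0.90 in PC3 and −0.029 in 22RV1. SNRPD3 shares 12.6% of its exon bases with GUCD1 on the opposite strand, which was between 48.03 and 53.8 TPM in all libraries. It shares another 12% with GGT1 on the same strand, which was between 12.6 and 15.5 TPM. Whether the counting used strand is not given in the sources used here.

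The other Sm genes did not pass 1.5-fold with shDDX52 in either line. SNRPD2 was 528 and 511 TPM in 22RV1 and 569 and 438 TPM in PC3, shCON first, with log2 ratios of −0.047 and −0.38. SNRPF had ratios of −0.053 in 22RV1 and −0.40 in PC3 on the log2 scale, and SNRPG of −0.30 and −0.28. SNRPD1 was the 1 Sm gene that was above 0.32 in 22RV1, from 37.6 to 48.2 TPM, and it was 27.7 and 22.9 TPM in PC3. SNRPB, which encodes Sm B and B′, was the most abundant Sm gene in 3 of the 4 libraries, with 693 and 714 TPM in 22RV1 and 550 and 603 TPM in PC3. Its paralog SNRPN, which encodes Sm N and is expressed from an imprinted locus, was 112 and 95.02 TPM in 22RV1 and 53.2 and 47.3 TPM in PC3. SNRPN therefore made up 13.9% and 11.7% of the summed SNRPB and SNRPN in 22RV1 and 8.82% and 7.28% in PC3. SNRPN shares 23.8% of its exon bases with SNURF on the same strand, which was at most 3.32 TPM.

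Although the ring holds its subunits in equal number, the TPM of their genes were far from equal. The part of the unknown gene lengths behind TPM in this spread was not tested. Among the 7 ring genes without SNRPN, the highest was 25.5 times the lowest in 22RV1 shCON and 26.8 times in 22RV1 shDDX52. In PC3 the ratios were 20.5 and 26.3. SNRPD3 was the lowest in both 22RV1 libraries and SNRPD1 in both PC3 libraries. SNRPG and SNRPC have 20 and 18 listed pseudogenes, whose summed TPM was at most 13.5 for SNRPG and 7.27 for SNRPC.

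U1 is represented by 2 members. SNRPA, the U1-A protein that binds a stem-loop of U1 RNA, was 235 and 287 TPM in 22RV1 and 144 and 123 TPM in PC3, shCON first. Its log2 ratios were 0.28 and −0.22, of opposite sign and neither past 1.5-fold. SNRPC, the U1-C protein at the 5′ splice site, was 227 and 232 TPM in 22RV1 and 272 and 283 TPM in PC3, and differed little with the hairpin.

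The U2 group of 13 genes held the member furthest down and the member furthest up in PC3. There, SF3B1 and SF3B3 fell, 15.4% of the group against 9.84% of all genes, and SF3A1 rose, 7.69% against 8.95%. With TPM as deposited the group median was −0.063, against −0.036 for all genes, and 10 of the 13 were lower, against 53.5% of all genes. Nuclear protein-coding scaling moved the PC3 median of all 52 members from −0.14 to −0.011, more than the size of this group median. In 22RV1 the group median was −0.070, against −0.076 for all genes, and 7 of the 13 were lower, against 58.8% of all genes. There 0 passed 1.5-fold, against 8.47% of all genes lower and 5.61% higher. The sums were 2207 and 2194 TPM in 22RV1 and 1733 and 1549 TPM in PC3.

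SF3B1, the large helical-repeat subunit of SF3b that clamps the branch site and is recurrently mutated in cancers, had the largest fall of all members. It was 24.2 and 21.7 TPM in 22RV1 and 67.2 and 25.3 TPM in PC3, shCON before shDDX52. PC3 shCON stood apart and the other 3 libraries lay close together, so that PC3 shDDX52 kept 37.6% of its control level with a log2 ratio of −1.37, against −0.15 in 22RV1. SF3B3, the scaffold subunit that cradles SF3B1, was 175 and 183 TPM in 22RV1 and 96.4 and 54.6 TPM in PC3, shCON first. Both PC3 libraries were below both 22RV1 libraries, and the log2 ratio in PC3 was −0.81 against 0.065 in 22RV1. Neither gene has a listed pseudogene or an annotated exon overlap with another gene.

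The remaining SF3b genes did not pass 1.5-fold. SF3B2 was 338 and 347 TPM in 22RV1 and 245 and 234 TPM in PC3, with a PC3 log2 ratio of −0.063. SF3B5 was 400.3 and 408 TPM in 22RV1 and 340 and 309 TPM in PC3, with a PC3 log2 ratio of −0.14. SF3B4 had a PC3 log2 ratio of 0.094. SF3B6, a small subunit next to the branch point adenosine, was 84.6 and 73.6 TPM in 22RV1 and 179 and 131 TPM in PC3, with log2 ratios of −0.20 and −0.44. SF3B1 was the lowest and SF3B5 the highest of the 6 SF3B genes in every library, with SF3B5 at 16.5 and 18.8 times the level of SF3B1 in 22RV1 and 5.06 and 12.2 times in PC3, shCON first.

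SF3A1, a subunit of the SF3a complex that joins SF3b to U2, was the single member called higher. It was 91.5 and 81.5 TPM in 22RV1 and 29.5 and 47.2 TPM in PC3, shCON before shDDX52. PC3 shCON was the lowest library, the log2 ratio was 0.66 in PC3 and −0.17 in 22RV1, and the PC3 level with shDDX52 was still below both 22RV1 libraries. Its partners SF3A2 and SF3A3 did not move with it, with PC3 log2 ratios of −0.053 and −0.040.

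**Figure D3:**
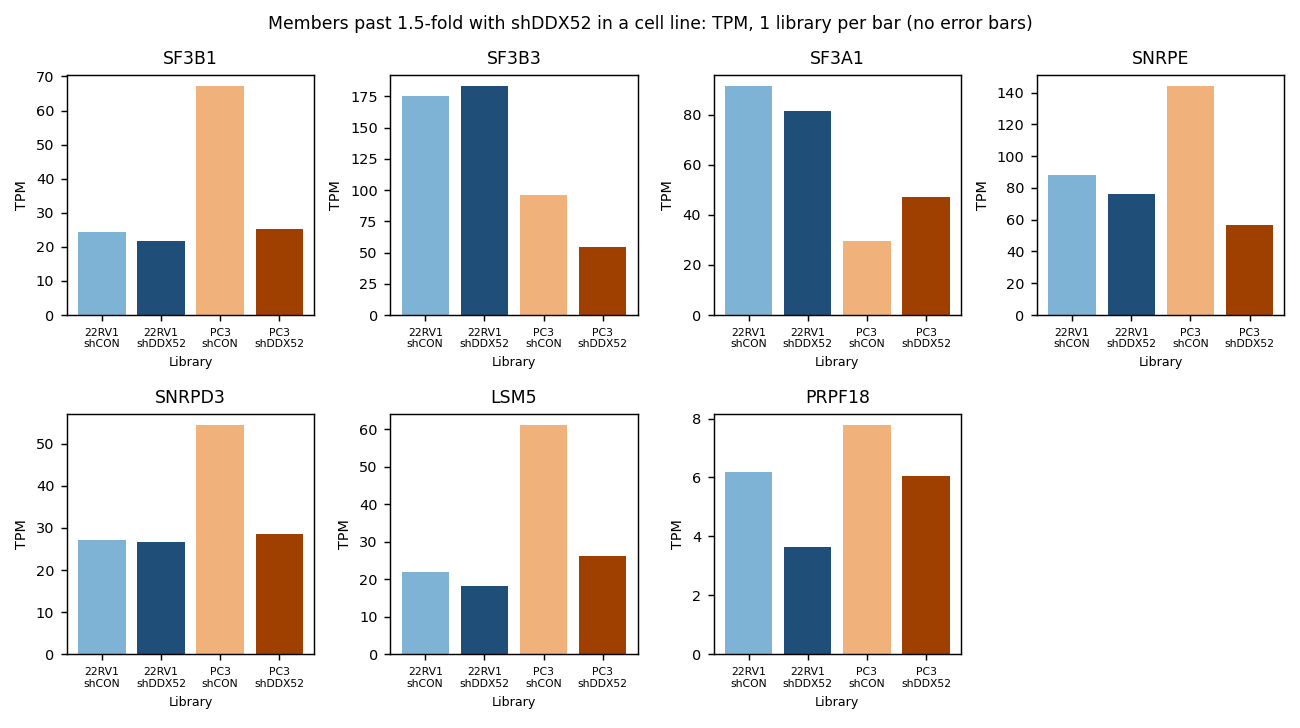
TPM of the 7 members that passed 1.5-fold with shDDX52 in either cell line, with 1 bar per library from 0 and no error bars because each condition has 1 library. For SF3B1, SNRPE, SNRPD3 and LSM5 the PC3 shCON bar is the highest of the 4, for SF3A1 it is the lowest, and for SF3B3 both PC3 bars are below both 22RV1 bars.

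The U2 genes SNRPB2 and SNRPA1 were lower in both lines without reaching 1.5-fold. SNRPB2, or U2-B″, was 29.1 and 20.7 TPM in 22RV1 and 79.5 and 65.3 TPM in PC3, with log2 ratios of −0.47 and −0.28. SNRPA1, or U2-A′, was 81.01 and 68.5 TPM in 22RV1 and 86.2 and 60.2 TPM in PC3, with log2 ratios of −0.24 and −0.51. The U2AF dimer, which reads the end of the intron, was nearly level. U2AF2, the subunit that binds the polypyrimidine tract, was 330.1 and 342 TPM in 22RV1 and 207 and 199.6 TPM in PC3. U2AF1, which contacts the AG at the 3′ splice site, was 128 and 139 TPM in 22RV1 and 159.6 and 172 TPM in PC3, with log2 ratios of 0.12 and 0.11. The annotation holds a near-identical second copy on chromosome 21, U2AF1L5, listed at 126 and 131 TPM in 22RV1 and 179 and 153 TPM in PC3, so the split of reads between the copies is uncertain. Summed over both copies the log2 ratio was 0.092 for 22RV1 and −0.058 for PC3, and the sign in PC3 therefore depends on the copy.

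The 8 genes of U5 and the tri-snRNP held 0 called members in either line. Of all genes, 8.47% were lower and 5.61% higher in 22RV1, and 9.84% and 8.95% in PC3. The median log2 ratio of the 8 genes was 0.0016 in 22RV1 and −0.057 in PC3, and their range in PC3 was −0.15 to 0.20. PRPF8, the scaffold of the catalytic centre, was 211 and 238 TPM in 22RV1 and 86.1 and 77.6 TPM in PC3, shCON first. SNRNP200, the helicase that unwinds U4 from U6, was 149 and 150 TPM in 22RV1 and 96.3 and 104 TPM in PC3, and EFTUD2, the GTPase of U5, was 76.8 and 75.04 TPM in 22RV1 and 128 and 116 TPM in PC3. For these genes the difference between cell lines was larger than that between hairpins. SART1, which helps to recruit the tri-snRNP, was furthest up in 22RV1, from 81.4 to 104.7 TPM, a log2 ratio of 0.36, and was 92.1 and 84.2 TPM in PC3. PRPF3 and PRPF4 are partners on the U4/U6 duplex. PRPF3 was 29.8 and 24.2 TPM in 22RV1 and 37.02 and 35.7 TPM in PC3, and PRPF4 was 23.9 and 19.7 TPM in 22RV1 and 17.6 and 20.3 TPM in PC3. PRPF31, which stabilizes the U4/U6 and U5 contact, was the most abundant of the group in PC3, at 210 and 208 TPM, with 111 and 117 TPM in 22RV1.

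LSM2 to LSM8 form the ring that binds the 3′ end of U6 RNA. In PC3 the median log2 ratio of these 7 genes was −0.31, with 4 lower and 3 higher, and in 22RV1 it was −0.078, also with 4 lower and 3 higher. Of all genes, 53.5% were lower in PC3 and 58.8% in 22RV1. At 1.5-fold LSM5 was the 1 ring gene called lower in PC3, 14.3% against 9.84% of all genes. LSM5 was 22 and 18.1 TPM in 22RV1 and 61.02 and 26.1 TPM in PC3, shCON before shDDX52. PC3 shCON again stood apart from the other 3 libraries, and the log2 ratio was −1.19 in PC3 and −0.27 in 22RV1. LSM2 and LSM3 were lower in PC3 as well, from 156 to 112 TPM and from 30.3 to 21.9 TPM, with log2 ratios of −0.47 and −0.45. LSM6 was the ring gene furthest down in 22RV1, from 51.1 to 35.8 TPM with a log2 ratio of −0.50, and was 43.7 and 44.3 TPM in PC3. LSM8, the subunit that sets the nuclear U6 ring apart from the cytoplasmic one, was higher in both lines, at 29.7 and 33.7 TPM in 22RV1 and 11.01 and 15.4 TPM in PC3. It was the lowest ring gene in both PC3 libraries, where LSM4 was the highest at 486 and 392 TPM (602 and 633 TPM in 22RV1), a spread of 44.1 and 25.4 times.

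The other LSM genes act outside the spliceosome in part. LSM1 takes the place of LSM8 in the cytoplasmic ring that promotes mRNA decay, LSM10 and LSM11 replace Sm subunits in the U7 particle that trims histone mRNA, and LSM14A and LSM14B act in translational repression. All 6 were lower in 22RV1, against 58.8% of all genes, with a median log2 ratio of −0.21 and a range of −0.36 to −0.070. Of the 6, 3 were lower in PC3, against 53.5% of all genes. None passed 1.5-fold in either line. Of all genes, 8.47% were lower and 5.61% higher at this limit in 22RV1, and 9.84% and 8.95% in PC3. LSM12 was 59.4 and 48.7 TPM in 22RV1 and 79.5 and 63 TPM in PC3, and its pseudogene LSM12P1 was listed at 7.9 and 1.06 TPM in 22RV1 and 1.77 and 24.1 TPM in PC3. LSM10 was the most abundant of these genes in 22RV1, at 70.4 and 63.6 TPM, and was 73.6 and 61.5 TPM in PC3. LSM11 was 1.83 and 1.21 TPM in 22RV1 and 1.71 and 2.23 TPM in PC3, where the pseudocount weighs on the ratio.

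Of the other PRPF genes, PRPF18, a factor of the second catalytic step, was 6.2 and 3.63 TPM in 22RV1 and 7.77 and 6.05 TPM in PC3, shCON before shDDX52. It was lower with shDDX52 in both lines, with log2 ratios of −0.64 and −0.31, and its call in 22RV1 was lost with a pseudocount of 5 (−0.38), with centring on all genes (−0.56) and with centring on length and GC content (−0.51). PRPF19, the ubiquitin ligase that names the PRPF19 complex, was the most abundant of the group at 198 and 184 TPM in 22RV1 and 142 and 146 TPM in PC3. PRPF4B, a kinase, was 6.3 and 6.62 TPM in 22RV1 and 11.8 and 10.5 TPM in PC3, higher in both PC3 libraries than in the 22RV1 libraries. Within this group PRPF39 was furthest up in 22RV1, from 2.05 to 2.79 TPM, and PRPF40B furthest down in PC3, from 13.3 to 10.2 TPM. PRPF39 was 4.3 and 3.66 TPM in PC3, and PRPF40B was 11.3 and 11.1 TPM in 22RV1. PRPF38A was 16.9 and 17.4 TPM in 22RV1 and 11.4 and 12.7 TPM in PC3.

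The control libraries of the cell lines differed more than the hairpins did. The TPM of each cell line were deposited in a table of their own, and levels set across the lines rest on values scaled separately in each library. Comparing PC3 shCON with 22RV1 shCON, 12 members were lower in PC3, 23.1% against 32.2% of all 15727 genes, and 11 were higher, 21.2% against 29.3%. The typical size of the difference was a log2 ratio of 0.47 for the members. It was 0.69 for the 2830 genes with a mean TPM in the middle range of the members, and cell line and library cannot be told apart here. Within U2 the SF3a genes were all lower in PC3, with SF3A1 at 3.1-fold, SF3A2 at 2.96-fold and SF3A3 at 1.75-fold in 22RV1 over PC3. Inside SF3b the members split, with SF3B3 and SF3B4 lower in PC3 (log2 ratios of −0.85 and −0.94) and SF3B1 and SF3B6 higher (1.43 and 1.07). SNRPB2 was 2.73-fold higher in PC3. PRPF8 was 2.45-fold and LSM8 2.7-fold higher in 22RV1, and PRPF31 was 1.9-fold higher in PC3. Both PC3 libraries gave these directions for PRPF8, PRPF31, SNRPB2, SF3A2 and LSM8, since both were on the same side of both 22RV1 libraries. For SF3B1 and LSM5 the comparison rests on the PC3 shCON library, since PC3 shDDX52 was close to 22RV1 shCON.

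**Figure D4:**
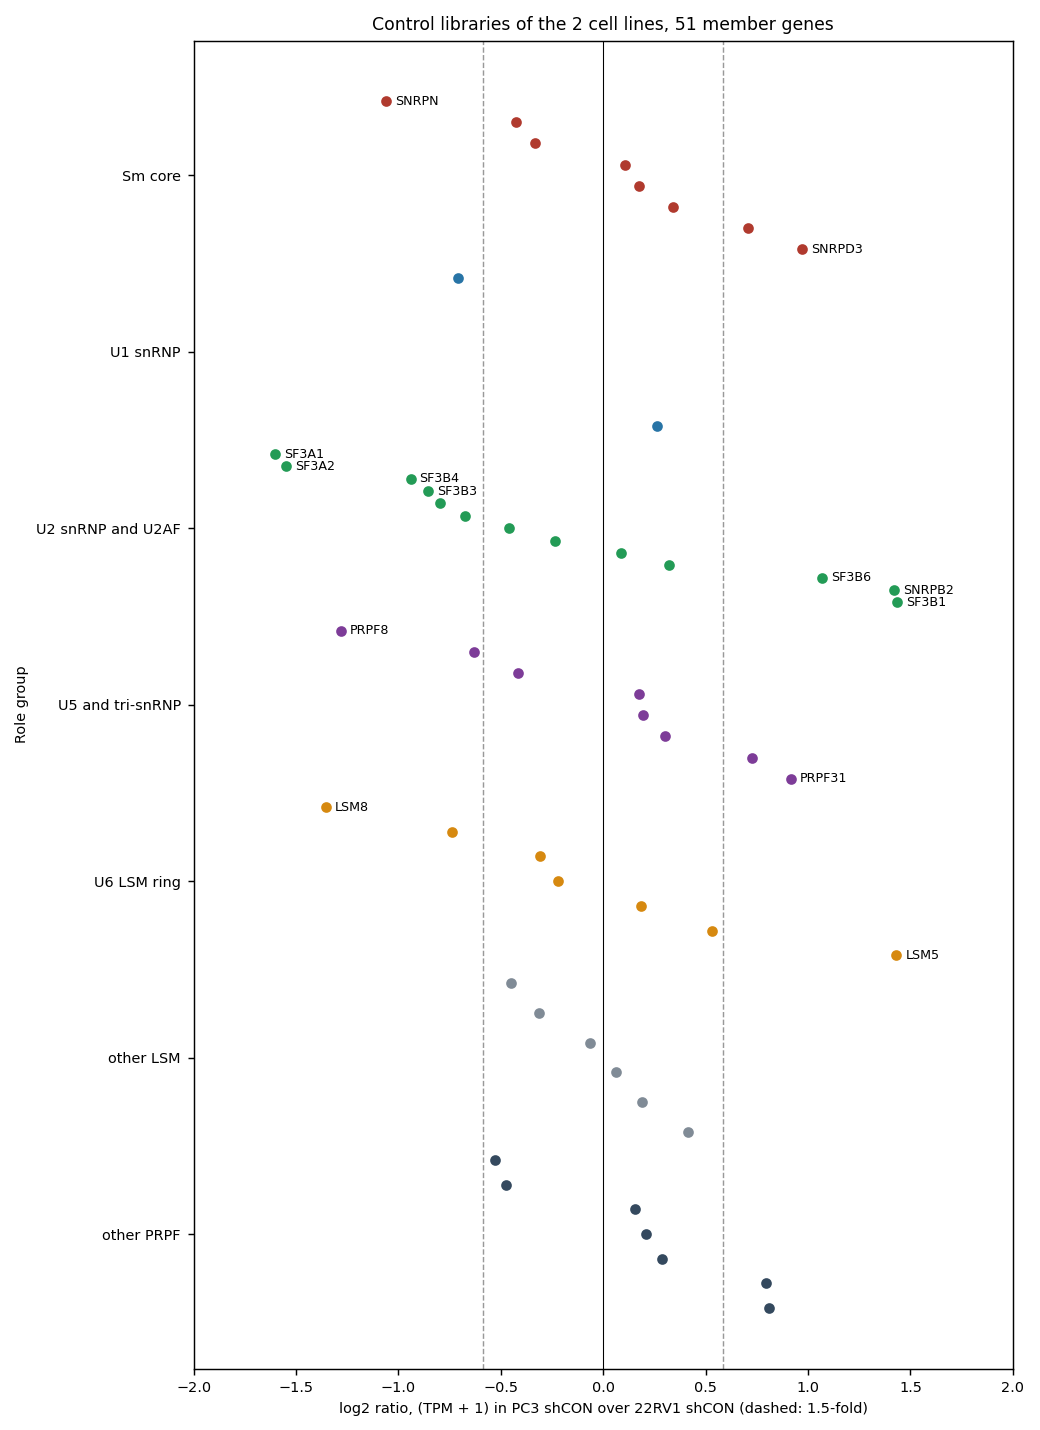
Log2 ratio of PC3 shCON over 22RV1 shCON for 51 of the 52 members by role, with dashed lines at 1.5-fold and names beside members beyond 0.85 in either direction. SF3A1 and SF3A2 lie furthest to the left and SF3B1, LSM5 and SNRPB2 furthest to the right, and the other LSM genes stay inside the lines.

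The PC3 shCON library was the highest of the 4 for 24 of the 52 members, or 46.2%, against 27% of the 16525 genes with at least 1 TPM in any library. A member highest there is by definition lower in PC3 shDDX52, so this count partly repeats the PC3 ratios. It is for TPM as deposited, and with nuclear protein-coding scaling 28 members and not 36 were lower in PC3. The PC3 shCON library was at least 1.5-fold above each of the other 3 libraries for SF3B1, SNRPE, LSM5 and SNRPD3, 7.69% of the members against 4.86% of all genes. It was at least 1.5-fold below each of them for SF3A1, 1.92% against 2.28%. PC3 shDDX52 is one of the libraries in this limit, so only members already called in PC3 could meet it. The change with shDDX52 in PC3 depends on the level in 1 control library for every gene, and for these 5 that library stood apart from the other 3.

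Transcript length went with the ratios in PC3 for genes in general. Across all genes compared in both lines, Spearman's rho between the PC3 log2 ratio and the length of the longest transcript was 0.23. It was 0.28 across the 52 members. With the 22RV1 log2 ratio, rho was −0.047 across all genes and 0.23 across the members. Of the members under 1500 bases, 8 of 11 were lower in PC3, with a median of −0.28 against −0.19 for the 1107 protein-coding genes of that length. For members of 3000 bases or more, the median was −0.063 against 0.044 for genes of that length, and SF3B1 and SF3B3, with longest transcripts of 6526 and 9720 bases, are among them. Of the Sm genes, SNRPB, SNRPD2, SNRPE, SNRPF and SNRPG are under 1500 bases, as are LSM2 and LSM7 of the U6 ring, and the part of length in the group medians was not tested.

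Spliceosome genes outside the symbol rule were counted in the same way. Of 29 other snRNP proteins, 0 were called in 22RV1, against 8.47% of all genes lower and 5.61% higher. In PC3, 3 were lower (SNRNP35, SRRM2 and LUC7L), 10.3% of the list against 9.84% of all genes, and 0 were higher, against 8.95%. The medians were −0.057 in 22RV1 and −0.13 in PC3. SNRNP35, a protein of the minor U11/U12 particle, was 31.7 and 25.7 TPM in 22RV1 and 27 and 11.2 TPM in PC3. Of 28 PRPF19 complex and catalytic step factors, 2 were lower in 22RV1 (PLRG1 and ISY1), 7.14% against 8.47% of all genes, and 5 in PC3 (AQR, CDC5L, CWC27, ISY1 and PLRG1), 17.9% against 9.84%. The medians were −0.095 and −0.23, and 0 were higher in either line, against 5.61% and 8.95% of all genes. PLRG1 was 23.5 and 10.2 TPM in 22RV1 and 36.1 and 22.01 TPM in PC3, and ISY1 26.3 and 15.7 TPM in 22RV1 and 19.5 and 11.01 TPM in PC3. These 2 genes were called lower in both lines, which 0 of the 52 members and 1.18% of all genes were. Of 17 snRNP assembly genes, 0 were called in 22RV1, against 8.47% of all genes lower and 5.61% higher. In PC3 GEMIN6 and PHAX were lower, 11.8% against 9.84%, and 5.88% against 8.95% were higher. The gene called higher was PRMT5, the methyltransferase that modifies Sm proteins, which went from 69.8 to 124.7 TPM, with 201 and 188 TPM in 22RV1.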

How the data were processed

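RNA of 22RV1 and PC3 cells with shCON or shDDX52 was sequenced, and no condition was replicated. The authors deposited TPM per Ensembl gene, after mapping on an online platform, and the submitters' processing notes name CASAVA, HISAT2 and hg19, without versions. The quantification program and annotation are not given in the sources used here. The identifiers match GENCODE 29 on GRCh38 for 58453 of 60671 genes, so gene types, lengths and positions are from that annotation and not from the authors' build. Symbols were found for 42020 identifiers, and all 52 members matched.

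The pseudocount was 1 TPM, the minimum 1 TPM and the call 1.5-fold, with a log2 ratio of 0.32 and 2-fold as alternatives. Alternatives also covered pseudocounts of 0.1 and 5, filters, scaling over nuclear protein-coding genes, centring on all genes or on 10 length by 5 GC bins, and particle members only. The ratios, calls and centring were tested on simulated data. Members, role lists and limits were chosen with earlier results of these data known. Any member could be named, but 1 member and 1 marker gene are not reported here, and the figures leave out that member, which the counts include. Values in all libraries are given for members past 1.5-fold in either line, for those furthest down, furthest up or highest in a role group, and for near-identical copies, and other spliceosome genes are named where they passed 1.5-fold. Promoter sequences are from RefSeq (GRCh38.p14). Scripts ran under Python 3.11.15 with matplotlib 3.10.9, numpy 2.4.6, scipy 1.17.1 and pandas 2.3.3.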

Additional observations from a re-analysis of the deposited data

How the results depend on the processing

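The 7 counts and medians had 60 alternative values. Of these, 44 had the same sign and stayed within 1.5 times (counts) or 0.1 (log2 medians), 12 moved and 4 reversed. Removing the filter could change none of them, because all 52 members reached 1 TPM in each library, so those values add nothing to the 44. The members' median in 22RV1, −0.050, reversed to 0.026 when centred on all genes and to 0.0031 when centred on length and GC content. The median of PC3 shCON against 22RV1 shCON, 0.098, reversed to −0.074 with the length and GC centring and to −0.066 with particle members only. The median in PC3, −0.14, moved to −0.011 with nuclear protein-coding scaling. At a log2 ratio of 0.32, 4 members were lower and 2 higher in 22RV1, and 13 lower and 2 higher in PC3. At 2-fold, 0 were lower in 22RV1, and 3 lower and 0 higher in PC3. The 3 are 5.77% of the members against 3.44% of all genes. For the counts of 0 the share of all genes past 2-fold is not given here, so they have no comparison. The 1 member lower in 22RV1 became 0 with a pseudocount of 5 and with either centring, and the 1 member higher in PC3 became 0 with the length and GC centring. Causes were not tested. Of 49 values for the 7 called members, added after seeing the data, 45 stayed past 1.5-fold, 0 reversed, and 3 for PRPF18 in 22RV1 and 1 for SF3A1 in PC3 did not pass. The filter settings only choose which genes are compared, so the values under them were fixed in advance for the called members. No paired analysis was possible because a cell line holds 1 library per hairpin and the cell lines were not treated as replicates. TPM holds no read depth, so the precision of low members such as LSM11, PRPF39 and PRPF18 is unknown.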

Other observations

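The small nuclear RNAs that these proteins bind were also listed. The summed TPM of genes named for U1 was 2104 with shCON and 97.3 with shDDX52 in 22RV1, and 143 and 2990 in PC3. Genes named for U4 summed to 814, 0, 24.7 and 1709 TPM in the same order, and genes named for U2 to 300.4, 52.4, 3.52 and 541 TPM. Genes named for U5 were listed at 0 in all libraries, and those named for U6 summed to at most 16.3 TPM. The sums for U1, U2 and U4 were high in 22RV1 shCON and PC3 shDDX52 and low in the other libraries, the same libraries in which the rRNA share was high and low. The summed TPM of the 52 protein genes did not follow this order, at 7188, 7197, 6351 and 5640 TPM.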
